A study of Mus musculus with 12 samples.

Results

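The genes described here carry out sulfation, the transfer of an activated sulfate group onto drugs, hormones, bile acids and other small molecules. They are the PAPS synthases Papss1 and Papss2, the cytosolic sulfotransferases Sult1a1, Sult1b1, Sult1d1 and Sult5a1, the PAP phosphatase Bpnt1 and the sulfite oxidase Suox. These 8 genes were listed by symbol, and all 8 were found among the 10607 genes with values in both assays. The set was selected on measured values of these libraries, since footprints of Papss2 were higher in the knockout. The differences between genotypes in the footprints of the 8 genes, and in the translation efficiencies made from them, are therefore a description. Where a fit over all genes calls any of them, the call is counted and nothing is read from it.

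METTL5 is the methyltransferase that adds N6-methyladenosine to 18S rRNA. Ribosome profiling covered the livers of 3 Mettl5 knockout (KO) mice and of 3 wild type (WT) mice. Mice with equal replicate numbers were taken as littermates, giving 3 litters with 1 mouse of either genotype. The KO carried a germline loss of the floxed second exon, obtained by crossing to a CMV-Cre line active in the whole body, on a C57BL/6 and 129S6 hybrid background backcrossed to B6. WT mice were their littermates, all lysates contained cycloheximide, which holds ribosomes on their transcripts, and no treatment differed between the groups. Each liver gave 1 input library, RNA-seq of the lysate that reports transcript abundance, and 1 library of ribosome-protected fragments (RPF), the footprints left after nuclease digestion. Translation efficiency (TE) is RPF divided by input. Age and sex of these mice were not in the labels, and whole liver was used, so fewer cells of a type and less RNA per cell cannot be told apart.

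Sulfation runs on PAPS, a nucleotide that carries activated sulfate. PAPS synthases make it from inorganic sulfate and ATP, each with a sulfurylase and a kinase activity in a single protein. The sulfotransferases use PAPS in the cytosol and leave PAP, which Bpnt1 breaks down. Part of the sulfate comes from cysteine, through sulfite that Suox oxidises in mitochondria. In liver the pathway is known for conjugating phenols, steroids and bile acids for excretion.

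Since METTL5 acts on the rRNA of the small subunit that selects the start codon, the start contexts of the 8 coding sequences are shown. They were read from the GENCODE M21 transcripts (build GRCm38, the mm10 of the files), 5′ to 3′, with 10 bases before the start codon, the start codon in capitals, and 6 bases after it.
Papss1: ctccgcggccATGgagatt
Papss2: aagaattatcATGtctgca
Sult1a1: cgagggaggcATGgctcag
Sult1b1: tgctgcaaaaATGagtgcc
Sult1d1: gtctccccaaATGgataac
Sult5a1: gtgcaccagcATGactgag
Bpnt1: agtgtttatcATGgcttcc
Suox: tcttgccacgATGctgctg
A purine at position -3 and a G at position 4, counted from the A of the start codon, are known to favour initiation. A purine stood at -3 in 7 of 8 genes, Sult1d1 being the exception, against 86.6% of 10208 genes. A G stood at position 4 in 4 of 8 genes, against 53.3%. Both features were present in 3 of 8 genes, Papss1, Sult1a1 and Bpnt1, against 46.1% of all genes. Papss2 had the purine without the G.

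Input libraries held 8326325 to 11825643 counted read pairs, and the 18S rRNA gene took 45.8% of them in KO replicate 1 and 59.1% to 63.8% in the other 5. KO replicate 1 was also the deepest input library once that gene was set aside. RPF libraries held 4623826 to 9184242 reads in the table of normalised values. Mettl5 itself had 15.7 to 38.5 normalised reads in WT input and at most 9.30 in KO input, and 47.8 to 58.4 in WT RPF and 5.53 to 9.56 in KO RPF, so the labels held in all 6 mice. Hepatocyte markers (6 of 6 detected) summed to 19736 to 26873 CPM (counts scaled to a common library total) in WT input and 20886 to 22367 in KO input. Lymphocyte markers summed to at most 6.05 CPM and cholangiocyte markers to at most 9.39 CPM, with Cftr at 0 counts in every library. Stellate cell markers (6 of 6 detected) summed to 70.2 to 80.7 CPM in WT and 91.9 to 98.6 CPM in KO, without overlap. The markers were not uniform: Reln, Col1a1, Col3a1 and Pdgfrb lay higher in every KO library, while Lrat and Dcn overlapped. Lrat had 3.99 to 10.4 CPM in WT and 4.03 to 8.15 CPM in KO. Of all 8994 genes, 3.65% had input values higher in every KO library. Genes known to be higher in male liver (8 of 8 detected) summed to 819.7 to 977 CPM in WT and 515 to 819.2 CPM in KO, while genes higher in female liver (10 listed, 4 at 0 counts) stayed at or below 1.79 CPM in every library. Xist was at 0 counts in 6 of 6 input libraries. The Y-linked Ddx3y had 32.7 to 37.3 CPM, and the Y-linked Eif2s3y, Kdm5d and Uty were detected in every library, the pattern of male mice. The part of these differences in the values below was not tested.

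The level of each transcript was compared per length, as TPM (counts per exon length, scaled to a common library total), in WT input. Sult1a1, the phenol sulfotransferase, was highest with 21.7 ± 4.01 TPM (SD, n = 3). Papss2 followed with 17.2 ± 2.96 TPM and Suox with 15.1 ± 3.74 TPM. Sult1d1, known for sulfating catecholamines, had 11.7 ± 3.12 TPM and Bpnt1 had 8.71 ± 2.01 TPM. Papss1 had 2.94 ± 0.57 TPM and Sult1b1, known for sulfating thyroid hormones and phenols, had 2.48 ± 0.85 TPM. Sult5a1, a sulfotransferase with little known of its substrates, was lowest with 0.40 ± 0.38 TPM, set by WT replicate 3 at 0.84 TPM against 0.14 and 0.23 TPM. The ranges of neighbours in this order overlapped, except that Bpnt1 was above Papss1 and Sult1b1 above Sult5a1 in every library. Taking the coding length in place of the exon length kept 4 of 8 ranks, since exons were 1.52 times (Suox) to 5.06 times (Sult5a1) as long as the coding sequence.

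**Figure D1:**
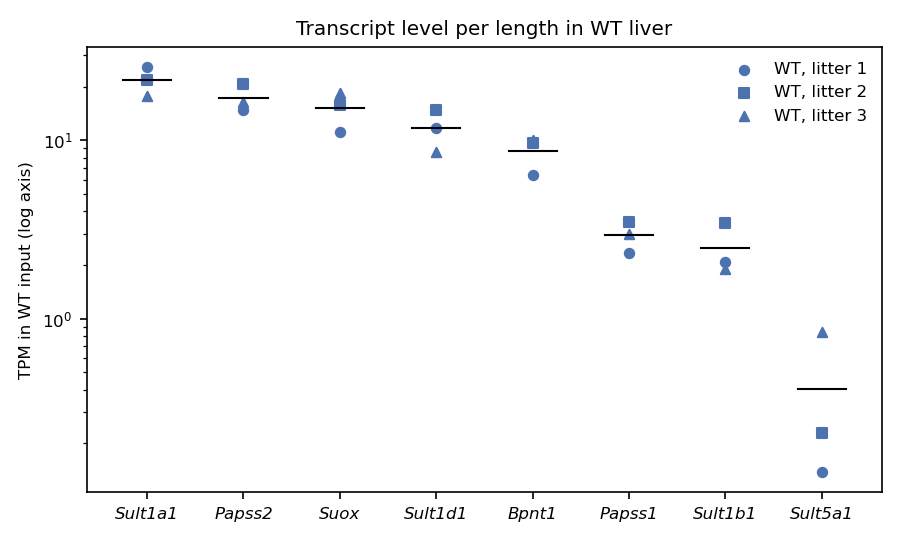
TPM over the exon length, on a log axis, for the 8 sulfation genes in the 3 WT input libraries, ordered by their mean (black line). Points are single mice, with a marker for each litter. Sult1a1, Papss2 and Suox lead, and Sult5a1 is lowest with its highest value in litter 3.

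Another sulfotransferase, Sult2a8, was named after its values were seen because it was above all 4 listed sulfotransferases, with 82.1 ± 7.41 TPM (SD, n = 3) in WT input. It belongs to the hydroxysteroid and bile acid branch of the family. Of the 17 other cytosolic sulfotransferases, 11 had 0 counts in all 6 input libraries, which allows up to 0.254 to 0.360 CPM by library from 3 counts (counting error only). A further 2 had at most 3 counts in a library. Only uniquely mapped reads were counted, so near-identical copies in the Sult2a group can be undercounted.

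The PAPS synthases differed in direction between the genotypes. Papss2 (chr19:32595790-32667187, plus strand) is the form known to prevail in liver. Its input was 666, 712 and 557 normalised reads in WT replicates 1 to 3 and 974, 861 and 843 in KO replicates 1 to 3. Normalised reads are read counts divided by 1 factor per library, with no correction for length. All 3 KO values lay above all 3 WT values, and KO was higher than its littermate in 3 of 3 litters. The fitted input change was 0.50 on the log2 scale (SE 0.14). The edgeR test over 10057 genes gave an unadjusted p of 0.0035 and an adjusted p of 0.999. Input and footprints came from the same livers, so this p is not independent of the choice of the set. Without KO replicate 1 the change was 0.42. Over all alternatives the value ran from 0.40 to 0.57 and the edgeR, DESeq2 or limma adjusted p from 0.277 to 1.00, so Papss2 transcripts passed no test across genes.

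Footprints of Papss2 were 1013, 1044 and 958 normalised reads in WT and 1550.1, 1594 and 1502 in KO. This is the difference that chose the set: 1.54 times the WT mean, or 0.62 on the log2 scale (SE 0.13), with litter differences of 0.61, 0.61 and 0.65. The replicates were tight, with a coefficient of variation of 4.33% in WT and 2.96% in KO. The RPF to input ratio was 1.52, 1.47 and 1.72 in WT and 1.59, 1.85 and 1.78 in KO. These ratios overlapped, although KO was above its littermate in 3 of 3 litters, and the TE change was 0.15 (SE 0.18). Papss2 footprints thus stood 0.62 higher beside transcripts that stood 0.50 higher. For each gene the input change is from edgeR on counts, while RPF and TE changes are from limma on normalised values. The printed TE change therefore need not equal the RPF change minus the input change.

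Papss1 (chr3:131564768-131643671, plus strand), the form known from most other tissues, had no such rise. Its input was 86.2, 98.7 and 83.9 normalised reads in WT and 77.0, 91.7 and 81.6 in KO, with an input change of -0.08 (SE 0.20; edgeR adjusted p 0.999). The input groups overlapped. Its footprints were 140.3, 142 and 149 in WT and 124, 127 and 116 in KO, every KO library below every WT library, an RPF change of -0.23 (SE 0.16). The ratios overlapped, at 1.43 to 1.77 in WT and 1.38 to 1.61 in KO.

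The balance of the PAPS synthases was followed within each library, where library scaling drops out. Papss2 had 7.72, 7.21 and 6.64 times as many input counts as Papss1 in WT and 12.7, 9.39 and 10.3 times as many in KO. The mean log2 ratio was 2.84 ± 0.11 in WT and 3.42 ± 0.22 in KO (SD, n = 3 each), a difference of 0.58. The groups did not overlap, and the exact two-sided permutation test gave p = 0.1, the smallest that 3 against 3 allows. Papss2 was chosen on footprints of the same livers, so this p is not independent of that choice and nothing is read from it. In footprints Papss2 stood at 7.22, 7.37 and 6.45 times Papss1 in WT and at 12.5, 12.6 and 13.0 times in KO. The footprint ratio contains the values that chose the set and is a description.

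Across the 8 genes, input groups did not overlap for 2 (Papss2 and Suox), where 9.25% of 8994 genes showed this. Footprint groups did not overlap for 3 (Papss2, Papss1 and Bpnt1), against 19.8% of genes. Papss2 is among them by the choice of the set. Papss1 and Bpnt1 lay lower in KO, as 12.9% of genes did. The RPF to input ratios did not overlap for 1 (Sult1b1), against 13.4%. In input, edgeR called 0 of 10057 genes (0%) at an adjusted p of 0.05, with 348 (3.46%) at an unadjusted p under 0.05 and 1 gene called by DESeq2. Of the sulfation genes, 7 passed the count filter, Sult5a1 did not, and 5 of the 7 had a positive input change, with a median of 0.17 beside 0.00 over all genes. In RPF, limma called 44 of 8994 genes (0.489%), and Papss2 was the 1 sulfation gene among them, which the choice of the set fixed. The limma calls were 15 higher and 29 lower, and edgeR on whole reads called 66 genes, 33 higher and 33 lower. Papss2 was not called when WT replicate 1, 2 or 3 or KO replicate 2 or 3 was left out, and the number of genes called ran from 0 without KO replicate 2 to 226 without KO replicate 1. The RPF change was positive for 2 of 8 genes, with a median of -0.23 beside -0.03 over all genes. In TE, limma called 0 of 8994 genes (0%), with 423 at an unadjusted p under 0.05, and edgeR on whole reads also called 0.

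**Figure D2:**
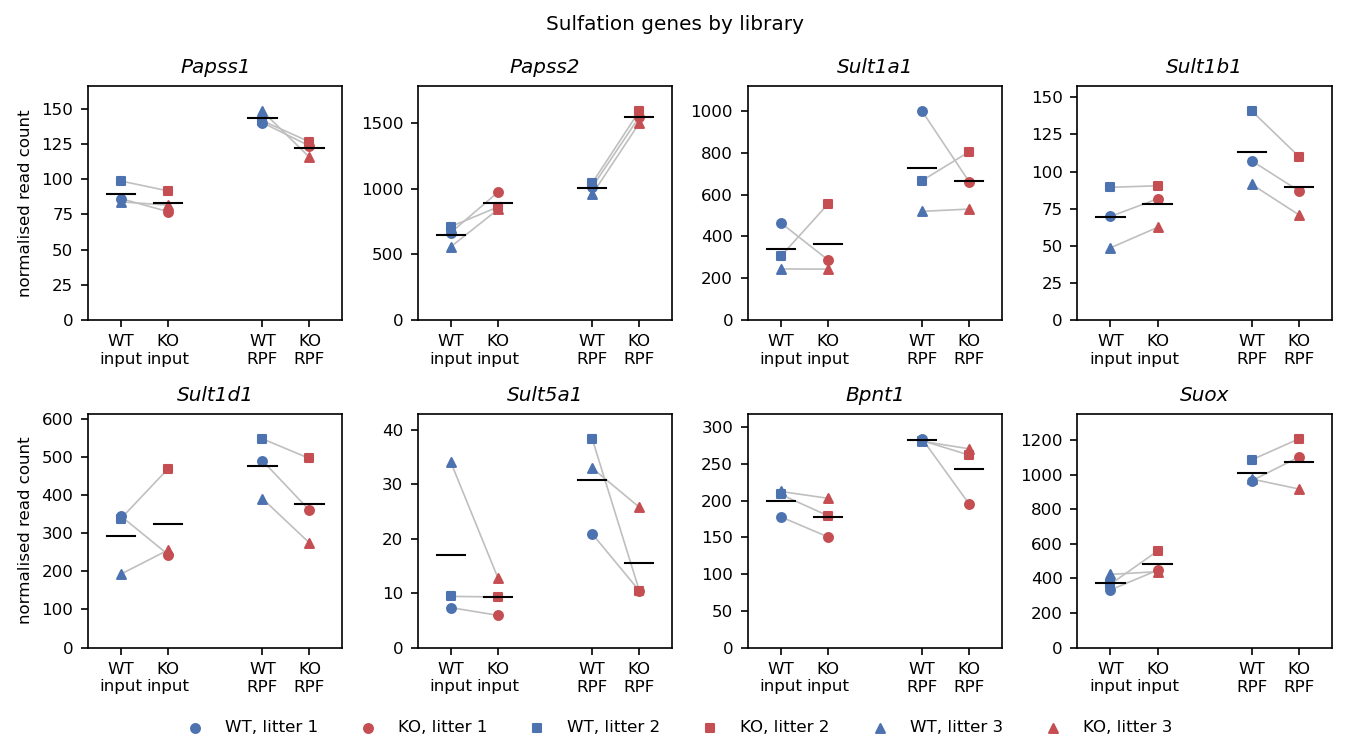
Normalised read counts (reads divided by 1 factor per library) of the 8 sulfation genes in WT and KO, input on the left and RPF on the right of each panel. Points are mice, grey lines join littermates, and black lines are group means of 3. Papss2 rises in every litter in both assays, while Papss1 and Bpnt1 footprints in KO lie below all WT values.

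Among the sulfotransferases, Sult1a1 (chr7:126672865-126676432, minus strand) varied more between mice of a genotype than between the genotype means. Its input was 466, 304 and 244 normalised reads in WT and 288, 554 and 243 in KO, and its footprints were 1002, 668 and 520 in WT and 662, 807 and 531 in KO. The genotype changes were 0.13 in input (SE 0.42; edgeR adjusted p 0.999), -0.10 in RPF (SE 0.36) and -0.15 in TE (SE 0.51). Its input change turned to -0.07 without WT replicate 3 and to -0.30 without KO replicate 2. Its RPF change turned to 0.16 without WT replicate 1 and to 0.05 without KO replicate 3, and its TE change to 0.05 without KO replicate 2. The RPF to input ratio was 2.13 to 2.20 in WT, and KO replicate 2 stood apart with 1.46 against 2.30 and 2.19. Its last bases overlap the neighbouring Sgf29 on the opposite strand.

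Sult1b1 and Sult1d1 are neighbours on chromosome 5, both on the minus strand and 16.4 kb apart (chr5:87513339-87538195 and chr5:87554645-87569027). Sult1b1 footprints were 107, 141 and 91.3 normalised reads in WT and 86.9, 110.0 and 70.7 in KO. Each KO mouse was below its littermate, by 0.30, 0.36 and 0.37 log2 units, yet the groups overlapped because litter 2 was high and litter 3 low in both genotypes. Sult1b1 transcripts went the other way, with 69.7, 89.3 and 48.5 in WT and 81.6, 90.4 and 62.4 in KO. Its RPF to input ratio was 1.54, 1.58 and 1.88 in WT and 1.07, 1.22 and 1.13 in KO, without overlap. The changes were 0.22 in input (SE 0.25; edgeR adjusted p 0.999), -0.34 in RPF (SE 0.24) and -0.54 in TE (SE 0.34). The input change was 0.0043 without WT replicate 3, 0.13 without KO replicate 2, 0.35 without KO replicate 3 and 0.45 without WT replicate 2. The RPF change of Sult1b1 was -0.17 without WT replicate 2 and -0.18 without KO replicate 3. It ran from -0.50 to -0.17 over single mice left out.

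Sult1d1 had the same order of litters in its footprints, with 491, 548 and 391 in WT and 360.1, 496 and 274 in KO, and again each KO mouse was below its littermate. Its transcripts were 345, 339 and 193 in WT and 244, 469 and 256 in KO, overlapping. The changes were 0.17 in input (SE 0.34; edgeR adjusted p 0.999), -0.37 in RPF (SE 0.30) and -0.49 in TE (SE 0.43). The input change turned to -0.06 without WT replicate 3 and to -0.19 without KO replicate 2, and the RPF change of Sult1d1 was -0.16 without KO replicate 3 and -0.58 without KO replicate 2. Its RPF to input ratios overlapped, at 1.42 to 2.03 in WT and 1.06 to 1.48 in KO.

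These neighbours have the lowest GC content of the 8 coding sequences, 41.4% for Sult1b1 and 39.3% for Sult1d1, against 49.6% to 53.7% for the rest and a median of 52.6% over the genes tested. Across 8984 genes the RPF change rose with coding GC content (Spearman's rho 0.455), whereas the input change hardly did (rho 0.085). Genes share libraries and are not independent replicates. With the GC trend of each library removed, the RPF change was -0.06 for Sult1b1 and -0.05 for Sult1d1, and the TE change was -0.34 and -0.26. The RPF change of Papss2 was 0.68 on the same footing, and those of Papss1 and Bpnt1 were both -0.24.

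**Figure D3:**
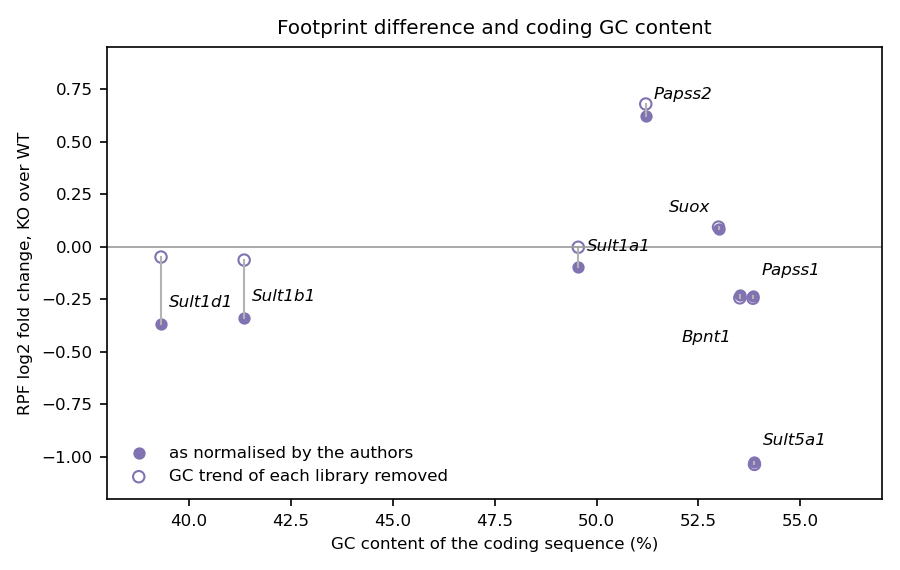
RPF log2 fold change (KO over WT) of the 8 genes against the GC content of their coding sequence in percent, before (filled) and after (open) the GC trend of each library was removed. Sult1d1 and Sult1b1, at 39.3% and 41.4% GC, move to near 0, while the other genes move little and Papss2 stays highest.

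Sult5a1 (chr8:123140192-123158315, minus strand) was at the limit of detection in input, with 4, 6 and 26 counts in WT and 9, 7 and 8 in KO. Its footprints were 20.9, 38.4 and 33.0 normalised reads in WT and 10.4, 10.5 and 25.8 in KO. Each KO mouse was below its littermate, and the groups overlapped through KO replicate 3. The RPF change was -1.02 (SE 0.51), lower than in all but 0.511% of genes. The RPF to input ratio was 2.85, 4.08 and 0.97 in WT and at most 2.02 in KO, lower than the littermate's in litters 1 and 2 and higher in litter 3. The TE change was -0.48 (SE 0.72), and it was -0.06 without WT replicate 2, -0.25 without KO replicate 2 and -0.0081 with edgeR on whole reads. Without WT replicate 3, the gene was under the filter on low values. A predicted gene on the opposite strand, Gm20388, spans it.

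Bpnt1 (chr1:185332149-185357777, plus strand) clears the PAP left by cytosolic sulfotransferases. Its footprints were 284, 282 and 281 normalised reads in WT and 195, 262 and 270.5 in KO. All KO values lay below all WT values, and 1 library set the size of the difference. The RPF change was -0.23 (SE 0.16), and -0.08 without KO replicate 1. Transcripts were 178, 208 and 212 in WT and 151, 179 and 203 in KO, an input change of -0.16 (SE 0.16; edgeR adjusted p 0.999) with overlap. The input change was -0.05 without KO replicate 1. The TE change was -0.06 (SE 0.23), and 0.03 without WT replicate 1.

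Suox (chr10:128669894-128674073, minus strand) was the other gene whose transcripts separated by genotype. Its input was 334, 367 and 424 normalised reads in WT and 448, 560 and 439.7 in KO, higher in 3 of 3 litters. The input change was 0.39 (SE 0.15), with an unadjusted p of 0.021 and an edgeR adjusted p of 0.999. It was 0.43 without KO replicate 1. Its footprints overlapped, with 966, 1088 and 976 in WT and 1104, 1209 and 918 in KO, an RPF change of 0.09 (SE 0.15) that was -0.0023 without KO replicate 2. The RPF to input ratio was below the littermate's in 3 of 3 litters, and the TE change was -0.28 (SE 0.21).

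**Figure D4:**
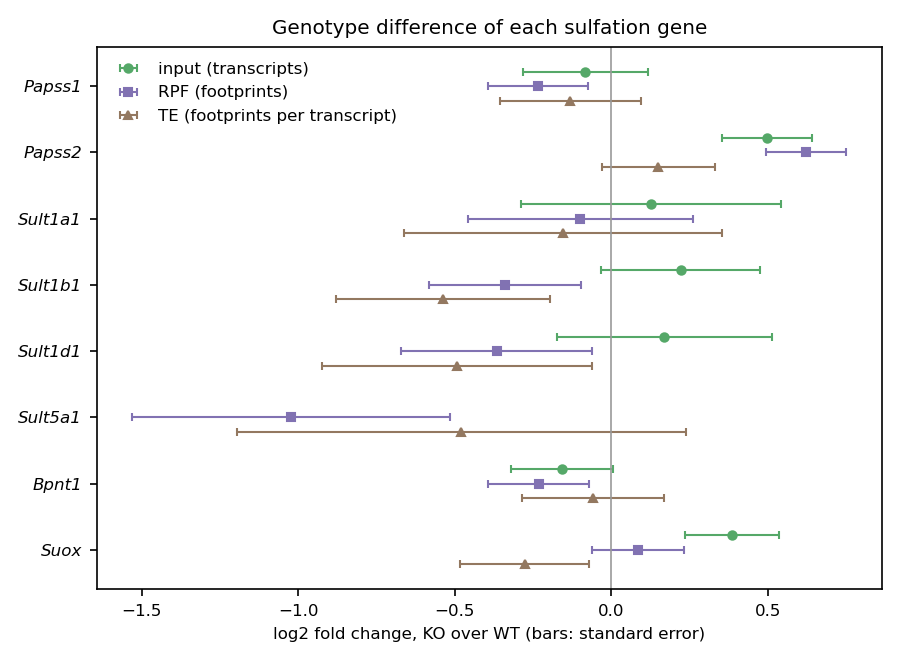
Fitted log2 fold change, KO over WT, of each gene in input (edgeR), RPF and TE (limma on log2 of the normalised value plus 1), with bars of 1 standard error. Papss2 is the only gene of the 8 with its input and RPF points both above 0 by more than 1 standard error, and the input change of Sult5a1 is absent because it failed the count filter.

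How heavily a transcript is covered by footprints was then compared within WT liver. The difference is taken between WT libraries, while its p-value rests on a spread estimated over the libraries of both genotypes. The fit did not pair the input and RPF libraries of a liver, so each SE includes differences in level between mice. Sult1a1, for example, has an SE of 0.36 below although its WT ratios were 2.13 to 2.20. Suox had the highest value of the 8, a log2 RPF over input of 1.43 (SE 0.15; limma adjusted p 1.47e-07). Sult1a1 followed with 1.11 (SE 0.36; adjusted p 0.022) and Sult5a1 with 1.09 (SE 0.51; adjusted p 0.075). Sult1d1 had 0.74 (SE 0.30; adjusted p 0.056), Sult1b1 0.72 (SE 0.24; adjusted p 0.016) and Papss1 0.68 (SE 0.16; adjusted p 0.0013). Bpnt1 had 0.50 (SE 0.16; adjusted p 0.012). Papss2 had 0.65 (SE 0.13), given without a test because its WT footprints entered the choice of the set. Of the other 7 genes, 5 passed the limma adjusted p of 0.05, all 5 higher in RPF, where 31% of 8994 genes did so. With litter as a replicate block all 7 passed, Sult1d1 with a limma adjusted p of 0.0012 and Sult5a1 with 0.030. Calls were lost for Bpnt1 (limma adjusted p 0.094) and Sult1b1 (0.051) without WT replicate 1, for Sult1a1 without WT replicate 2 (0.107) or KO replicate 1 (0.055), and for Sult1b1 without WT replicate 3 (0.067).

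The scale of this comparison is relative, since each library was scaled on its own. The median over all genes was 0.09, and centring each library on its median moved it to 0.22. Reads also fall on whole exons in input and mainly on coding sequence in RPF. When footprints were taken per coding length and input per exon length, relative to the median gene, values ran from -0.26 for Papss1 and 0.0064 for Papss2 through 0.40 for Suox and 0.71 for Sult1b1 to 1.79 for Sult5a1. Suox therefore led only on the scale without length.

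Within KO, the same 8 values were all above 0 and are given as a description. They were 1.16 for Suox, 0.95 for Sult1a1, 0.80 for Papss2, 0.61 for Sult5a1, 0.55 for Papss1 and 0.44 for Bpnt1. Sult1d1 had 0.25 and Sult1b1 0.18. The limma fit called 5 of the 8 higher in RPF, against 29.7% of all genes, and 3 without KO replicate 1 or without KO replicate 3. These footprints entered the choice of the set, and nothing is read from that count.

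**Figure D5:**
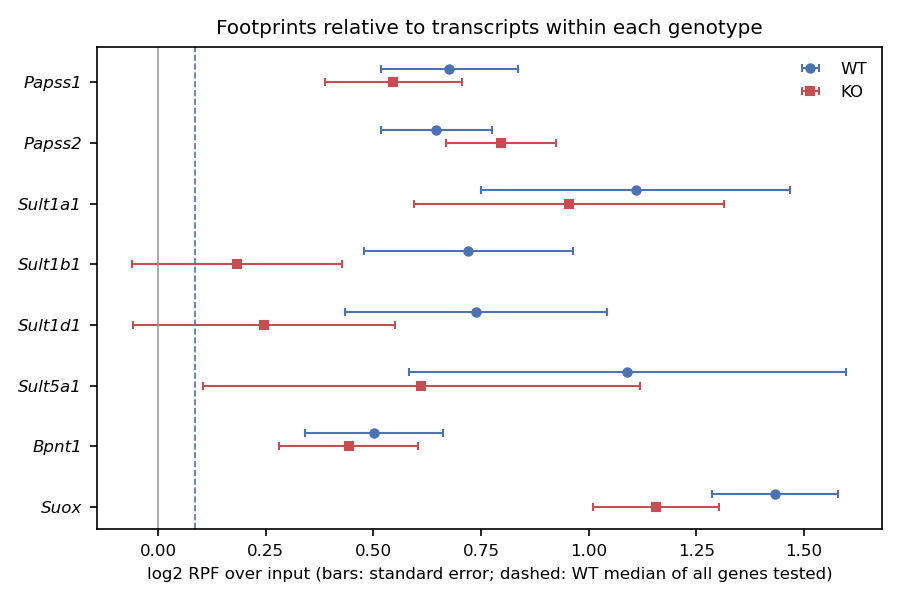
Log2 RPF over input of each gene within WT (circles) and within KO (squares), with bars of 1 standard error from the limma fit, and the dashed line is the WT median over the genes tested. All 8 genes lie to the right of 0 in both genotypes, and Sult1b1 and Sult1d1 show the widest gaps between genotypes beside Sult5a1.

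The rest of sulfur metabolism was counted from a list of 84 further genes, of which 55 had values in both assays. None of the 49 genes tested in input passed (edgeR, 0 of 49 also at an unadjusted p under 0.05), with 28 of 49 positive and a median change of 0.01. In RPF 0 of 50 passed in limma, 5 at an unadjusted p under 0.05 (13.4% of all genes, 1205 of 8994), with 28 of 50 positive and a median of 0.04. In TE 0 of 50 passed, 3 at an unadjusted p under 0.05 (4.7% of all genes), with 28 of 50 positive and a median of 0.07. With litter as a replicate block, Slc26a1 passed in RPF. It is the sulfate transporter of the hepatocyte membrane, and its footprints were 655, 896 and 947 normalised reads in WT and 829.9, 1324 and 1374 in KO. The groups overlapped, and KO was above its littermate in 3 of 3 litters, by 0.34, 0.56 and 0.54 on the log2 scale. The RPF change of Slc26a1 was 0.48 (limma adjusted p 0.404, and 0.036 with the block), and 0.38 with an adjusted p of 0.140 when GC and length trends were removed with the block. Its input change was 0.16 (SE 0.20).

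The genes of this list with the smallest p-values are named by rule, and none passed the adjusted p. In input the first was Ethe1, which oxidises persulfides in mitochondria, with 222, 194 and 212 normalised reads in WT and 151, 167 and 187 in KO. Its groups did not overlap, and its input change was -0.30 (SE 0.15; edgeR adjusted p 0.999). Chst13, a Golgi chondroitin sulfotransferase, had 23.8, 14.1 and 23.6 in WT input and 11.8, 10.6 and 11.2 in KO input, a change of -0.82 (SE 0.43; edgeR adjusted p 0.999).

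In RPF the first was Sgsh, a lysosomal sulfatase of heparan sulfate breakdown, with 12.2, 12.8 and 12.9 normalised reads in WT and 22.2, 22.7 and 35.4 in KO. Its RPF change was 1.00 (SE 0.32; limma adjusted p 0.170). Ndst2, which places N-sulfate on heparan sulfate, had RPF values of 11.3, 15.4 and 16.0 in WT and 22.9, 20.3 and 30.6 in KO, a change of 0.74 (SE 0.27; limma adjusted p 0.219). All KO libraries were above all WT libraries for both genes. Ndst2 also led in TE with 0.98 (SE 0.38; limma adjusted p 0.998). Slc35b2, the carrier that brings PAPS into the Golgi, followed with a TE change of 0.86 (SE 0.36; limma adjusted p 0.998). Its RPF to input ratio was 0.54, 0.41 and 0.55 in WT and 0.71, 0.83 and 1.29 in KO, without overlap.

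Within WT liver, these wider lists lay on either side of the typical gene in RPF over input. Of the 9 Golgi sulfotransferases tested, 8 passed lower in RPF, where 26.5% of all genes did so. Their median was -2.36 (-2.64 relative to the median gene when taken per length), and they ran from -3.62 for Tpst2, a protein tyrosine sulfotransferase, to 0.22 for Chst13, the gene that did not pass. Of 13 genes of cysteine, sulfite and sulfate metabolism, Cbs, Cth and Csad included, 10 passed higher in RPF (31% of all genes). Another, the dioxygenase Ado, passed lower. The median of this list was 1.06 (0.87 per length), beside 0.73 for the 8 sulfation genes (0.31 per length). Of 10 genes for the molybdenum cofactor, on which Suox depends, and its enzymes, 5 passed higher (31% of all genes), and of 11 sulfatases 4 passed lower (26.5% of all genes). Among 5 genes for sulfate and PAPS transport and PAP breakdown, Slc26a1 passed higher and 3 passed lower. The differences between lists were not tested.

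Between the genotypes, 0 genes of any of these lists passed in input, RPF or TE. The RPF change was positive for 8 of 9 Golgi sulfotransferases (median 0.31), 8 of 13 cysteine genes (median 0.09), 3 of 10 molybdenum genes (median -0.21), 5 of 11 sulfatases (median -0.12) and 4 of 5 transport genes (median 0.25), beside a median of -0.03 over all genes. These counts by list were not corrected for the trend with coding GC content. With that trend removed, 27 of the 50 genes tested were positive in RPF, with a median of 0.03.

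The genes whose footprints were most like those of Papss2 across the 6 RPF libraries were taken from all 8994 genes tested, by Pearson's r of log2 values. They were Tnxb, an extracellular matrix protein (r = 0.990), Jarid2, a cofactor of Polycomb repression (r = 0.988), Tmem47 (r = 0.984), Arhgap4 (r = 0.983) and the small GTPase Arf5 (r = 0.981). All 5 were higher in every KO library than in every WT library, as 6.97% of 8994 genes were. Likeness to Papss2, itself chosen for higher KO footprints, favours this split, so nothing is read from it. Tnxb had 59.2, 54.6 and 55.2 normalised footprints in WT and 109.8, 117 and 111 in KO, and an RPF change of 0.99. The points share their libraries and the split by genotype, so the correlation is a description over 6 mice. Papss1 ran opposite to Papss2 with r = -0.916 over the same libraries. Its footprints were lower in every KO library, as for 12.9% of genes, and such a split favours a negative r. How many genes reach this r was not counted, so it too is a description.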

How the data were processed

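Input and RPF libraries of 6 mouse livers were analysed. The authors deposited input counts per gene, made by trimming with BBDuk, alignment to mm10 with STAR 2.7.3a and strand-aware counting of unique read pairs over exons with featureCounts (1.6.0 per the labels, 2.0.3 per the file headers). The second deposited table holds, per the file headers, 12 columns of normalised values, here a signal of reads divided by 1 factor per library, since whole reads could be recovered from 100% of values. They are not length-normalised, although described as RPKM. RPF reads had first been cleared of rRNA with human rRNA sequences and mapped on the RiboToolkit server. The authors' own log2 fold changes and p-values of TE in the deposited table were not used. How the factors were set is not given in the sources used here. Every gene in that table has reads in all 12 columns.

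Groups and replicate numbers came from the labels. Input counts were tested with edgeR 4.0.16 (R 4.3.3; TMM, filterByExpr, robust quasi-likelihood), RPF, TE and RPF against input with limma 3.58.1 (trend, robust) on log2(value + 1). A gene entered if its mean reached 10 in input and in RPF. The model held 4 group means, tests were two-sided, and p was adjusted over all genes (Benjamini-Hochberg). It had no term pairing input and RPF of a mouse, so SEs of TE and of RPF over input include differences between mice. The fit with the mouse as a term was reported for TE only, where it called 0 of 8994 genes. The SE of an edgeR change is its size over the square root of the F statistic. Changes on the log2(value + 1) scale understate those of low genes. No column was left without a sample. No pair of replicate input libraries agreed within sampling noise (chi-square per degree of freedom of 7.23 or more). The fits were tested on simulated data. Gene symbols matched 99.4% of identifiers. Coding sequences came from GENCODE M21, the same build as the files.

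Equal replicate numbers in the titles were taken to mark littermates, and so pair the mice. Littermates' deviations from their group means had r = 0.082, 0.127 and 0.100 in input and 0.242, 0.144 and 0.195 in RPF. Since no litter term is named in the methods, the fit without it is the main one. The members, the wider list and the tests were chosen with earlier results of these data known. Genes were named by rule: the 8 members, the wider list's genes past the adjusted p or otherwise the 2 with the smallest p in each comparison, the 5 genes most correlated with Papss2 in RPF, and Mettl5. The alternatives comprised DESeq2 1.42.0, RLE size factors, pseudocounts of 0.1 and 5, other filters, columns centred on their median, litter as a replicate block, the mouse as a term, whole reads in edgeR, RPF columns alone, removal of GC and length trends, removal of rRNA genes and Lars2, an adjusted p of 0.1, and leaving out each mouse. The comparison per length within WT was chosen after seeing the data. Marker lists were summed in CPM computed from the deposited counts and TMM-adjusted library sizes.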

Additional observations from a re-analysis of the deposited data

How the results depend on the processing

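Of the sulfation genes, 0 passed in input and in TE under every alternative run. Genes called in input numbered 0 in the fit without litter, 1 with DESeq2, 30 without the count filter, 2 with the replicate block, 5 with GC and length trends removed and the block, and 0 to 21 with 1 mouse left out. Genes called in RPF numbered 44, against 144 at an adjusted p of 0.1, 236 with the replicate block, 13 with the GC trend removed, 23 with RPF columns alone, and 0 (without KO replicate 2) to 226 (without KO replicate 1) with 1 mouse left out. Sulfation genes called in RPF numbered 1, 0 with RPF columns alone and 0 to 1 with 1 mouse left out; Papss2 was called without KO replicate 1 and not without any other single mouse, its RPF change staying between 0.59 and 0.68 over all alternatives. Wider list genes called in RPF numbered 0, 1 with the replicate block (Slc26a1) and 0 to 1 with 1 mouse left out (Tst, without KO replicate 1). In TE, 1 gene was called with the replicate block, and 1 with GC and length trends removed and the block. Within WT, 5168 genes differed between RPF and input, and 3261 with a mean of at least 50 (20 wider list genes against 32); within KO the numbers were 4980 and 3162 (20 against 31). Sulfation genes called within WT, Papss2 included, numbered 6, and 4 to 7 with 1 mouse left out; within KO they numbered 5, and 3 to 5. The input change reversed without WT replicate 3 (Sult1a1 -0.07, Sult1d1 -0.06) and without KO replicate 2 (Sult1a1 -0.30, Sult1d1 -0.19), within ranges of -0.30 to 0.43 and -0.19 to 0.34 over single mice left out, and RPF over input of Papss1 reversed per length (-0.26); the cause was not tested. With 1 mouse left out, the RPF change ran from -0.32 to 0.16 for Sult1a1 and from -0.0023 to 0.20 for Suox, and the TE change from -0.28 to 0.05 for Sult1a1 and from -0.11 to 0.03 for Bpnt1. The Papss2 to Papss1 ratio stayed between 0.46 and 0.67, with an exact p of 0.25 in the sign-flip test over litters (replicate block), the smallest 3 litters allow. The order of levels kept 4 of 8 ranks with coding lengths. The replicate block changed the calls of Sult1d1 and Sult5a1 within WT and no other call of a sulfation gene. Precision was limited by 3 mice in a group and, for Sult5a1, by as few as 4 counts in an input library.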
